A study of Gallus gallus with 6 samples.

Results

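The transcripts described are those of 10 genes of bone morphogenetic protein (BMP) signalling, namely the ligands BMP2, BMP4, BMP5 and BMP7, the receptors BMPR1A, BMPR1B and BMPR2, the secreted antagonists GREM1 and NOG, and the pseudoreceptor BAMBI. The members are all probe sets of the array whose single annotated gene symbol is one of these 10. All 10 genes had at least 1 probe set, and together they had 18 of the 38439 probe sets tested and were 10 of 13009 named genes. The arrays compared 2 cultured chicken cell types with 3 biological replicates each. Primordial germ cells (PGC), which later give rise to eggs or sperm, were grown from blood of embryos at day 2.5, with 20 embryos for each replicate, in knockout DMEM, to which human basic fibroblast growth factor was added at 10 ng/ml. Embryonic fibroblasts (CEF) were grown to passage 2 from the bodies of embryos at day 6.5 without limbs and internal organs, with 5 embryos for each replicate, in DMEM with 10% fetal bovine serum. No genetic change is given for either cell type. Embryo age, source tissue and medium changed together with the cell type, so that their parts in any difference cannot be told apart. Both cultures were started from mixed embryonic tissue, blood for PGC and the dissociated body for CEF, and each replicate pooled several embryos.

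BMPs are secreted dimers that bring together type I receptors (BMPR1A, BMPR1B) and a type II receptor (BMPR2). The type II receptor activates the type I receptor, which phosphorylates SMAD1, SMAD5 and SMAD9, and these act with SMAD4 on targets such as the ID genes. NOG and GREM1 bind the ligands outside the cell, and BAMBI, which resembles a type I receptor without the kinase, blocks signalling at the membrane. In the mouse, BMPs from neighbouring tissues induce germ cells, whereas chicken germ cells inherit maternal germ plasm, and in connective tissue BMPs are best known for inducing cartilage and bone.

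The values are log2 expression as deposited, ranging from -0.13 to 12.52 over the 6 arrays, with array medians between 2.69 and 2.77. A background level was set at the 95th percentile of 689 probe sets that do not carry the prefixes of the chicken, control or reporter probe sets, with a mean of 1.68 over PGC and of 1.97 over CEF. Each difference is the PGC mean less the CEF mean in log2 units, given with limma's standard error, and a gene was called when it differed by 2-fold or more and its Benjamini-Hochberg adjusted p was under 0.05. The correlation across probe sets was 0.997 between PGC arrays, 0.980 to 0.987 between CEF arrays and 0.851 to 0.863 across cell types. Most markers of the labelled cell types differed as labelled. All 8 measured germ cell markers were called higher in PGC, DDX4 and DAZL among them, and 10 of 11 fibroblast markers in CEF, with PDGFRA the exception. On all PGC arrays, however, 6 of the 11 fibroblast markers were above background and 5 under it. The PGC means of VIM, COL3A1 and COL1A2 were 8.84, 8.28 and 7.38. Of the 8 germ cell markers, 2 were above background on all CEF arrays and 5 on none. The source of these readings was not tested. Of 12 measured leukocyte and thrombocyte markers, 10 were called higher in CEF and 1, CYBB, in PGC (1.35). The bacterial spike-in controls bioB, bioC and bioD had a mean log2 difference of -0.98. Another spike-in, cre, differed by only -0.13 and was not used for scaling. Scaling to bioB, bioC and bioD took the median over all probe sets from -0.09 to 0.89. It took the share of calls higher in PGC from 59.1% to 90.0%. Every result after spike-in scaling below therefore rests on that choice of spike-ins.

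Within the BMP genes, 2 of 10 were called higher in PGC, BMP7 and BMPR1B, and 1 was called higher in CEF, BMP2. Over all genes, 17.6% were called higher in PGC and 14.9% in CEF, so the members' counts lie near the background. Spike-in scaling brought the PGC count to 5, with BMPR1A, GREM1 and NOG added, and left the CEF count at 1. The median difference was -0.04 over the members and -0.05 over all genes, and the median absolute difference was 0.82 and 0.57. The 3 PGC arrays all lay above the 3 CEF arrays for 4 members and all below for 3, where 35.7% and 35.5% of all genes did so. A further 3 members, BMPR2, GREM1 and BAMBI, had an adjusted p under 0.05 with less than a 2-fold difference, a class that held 29.0% of all genes. By probe set, 2 of 18 were called in PGC and 2 in CEF, against 14.6% and 10.1% of all probe sets.

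**Figure D1:**
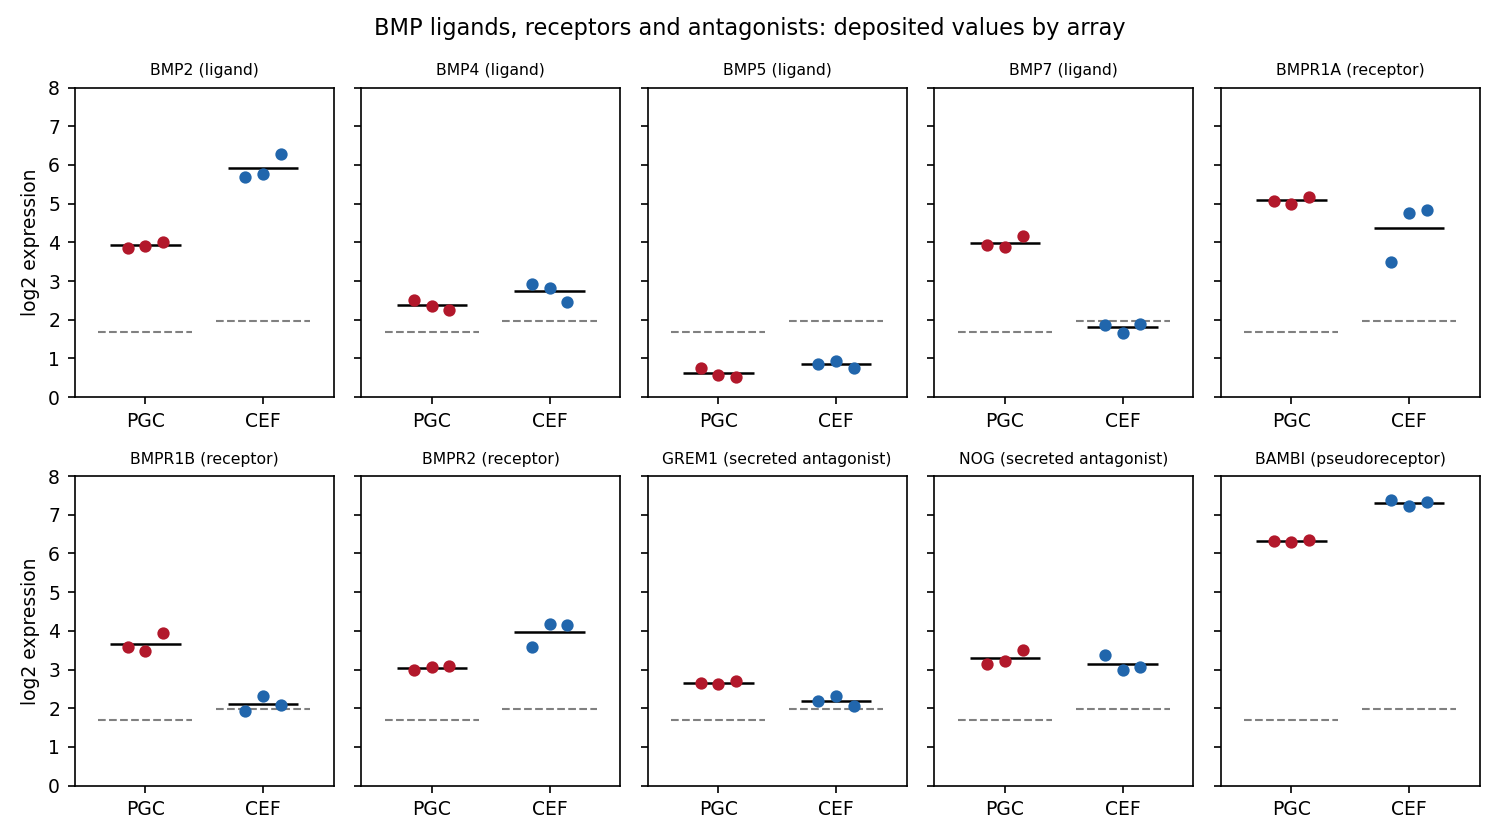
Log2 expression (vertical axis) of the 10 BMP genes on the 3 PGC (red) and 3 CEF (blue) arrays, with the brightest probe set on average drawn for each gene; black lines are group means and dashed grey lines the mean background level of each cell type. BMP2 was higher on all 3 CEF arrays (5.69 to 6.27) than on the PGC arrays (3.86 to 4.01), BMP7 and BMPR1B were higher on all PGC arrays, and BMP5 lay under background throughout. Heights of different genes are not comparable, since each probe set has its own affinity.

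Among the ligands, BMP2 and BMP7 differed in opposite directions. BMP2, which induces cartilage and bone and patterns the early embryo, read 3.86, 3.90 and 4.01 on the PGC arrays and 5.69, 5.78 and 6.27 on the CEF arrays (Gga.3950.1.S1_at). Every CEF array was above every PGC array, and all 6 were above background. BMP2 was thus 3.97-fold higher in CEF (difference -1.99 ± 0.17 (SE, n = 3 and 3), 95% interval -2.39 to -1.59, adjusted p = 2.1e-05). In a bulk RNA sample, fewer expressing cells and less RNA per cell cannot be told apart. BMP2 was also called on its second probe set (Gga.3950.1.S2_at), at -1.56 ± 0.24, with all 3 PGC arrays under background and CEF at least 1.84-fold higher. The CEF readings of that probe set were 2.85, 2.02 and 2.82, the second close to its background level of 1.97. This second call ended after spike-in scaling (-0.58) and when limma's treat was used to test against a 2-fold difference (adjusted p = 0.14). The filter on dim probe sets left this second probe set out. The third BMP2 probe set lay under background on all 6 arrays. On the first probe set the call stood under all other treatments that used it alone, with differences between -2.12 and -1.01. The smallest, after spike-in scaling, was at the edge of the 2-fold minimum. As the mean of its 3 probe sets BMP2 came to -1.24 and was still called. The summed linear level of the leukocyte and thrombocyte markers was 94.0 to 99.1 on the PGC arrays and 542, 350 and 1040 on the CEF arrays. The third CEF array was also the highest for BMP2 on its first probe set, but not on its other probe sets. Without that array the BMP2 difference on the first probe set was -1.81. That of 12 cartilage and bone markers was 188 to 202 in PGC and 686, 572 and 966 in CEF. Of those 12, COL11A1, RUNX2 and SPP1 were called higher in CEF, SOX9 was called higher in PGC (1.29), and 8 were not called. Without SPP1, left out after its values were seen, the cartilage and bone sum was 174 to 190 in PGC and 344, 363 and 319 in CEF, lowest on the third CEF array. The summed level of 9 endothelial markers was 83.6 to 87.2 in PGC and 123, 119 and 182 in CEF. Of those 9, CLDN5 and VWF were called higher in CEF and 7 were not called. Among these 7, EGFL7 lay towards PGC (0.71) and PECAM1 towards CEF (-0.73), and CDH5 and TEK were under background on all 6 arrays. Of the leukocyte markers SPI1, LY86, CD36, C1QB and LYZ lay under background on all PGC arrays, LYZ on all CEF arrays too. The summed level of 5 epithelial markers was 82.8 to 92.8 in PGC and 157, 174 and 165 in CEF. Of those 5, KRT14 was called higher in CEF (-4.10), CDH1 was called higher in PGC (3.09), and 3 were not called. The part of such cells in the BMP2 difference was not tested.

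BMP7, a ligand needed in other vertebrates for kidney and eye development, read 3.92, 3.88 and 4.16 in PGC and 1.87, 1.67 and 1.89 in CEF (Gga.6770.2.S1_a_at, a probe set for several transcripts of the gene). All PGC arrays were above background and all CEF arrays under it, with no overlap. The fitted difference was 2.17 ± 0.14 (95% interval 1.84 to 2.51, adjusted p = 3.9e-06), and against the CEF background level PGC was at least 4.03-fold higher. Neither of the other 2 probe sets of BMP7 was called. Gga.6770.2.S1_s_at, which can match transcripts of other genes too, differed by 0.13 ± 0.13 and was above background on 1 PGC array only, and Gga.4879.1.S1_at differed by 0.32 ± 0.13 under background on all 6 arrays. As the mean of its 3 probe sets BMP7 came to 0.87 and was no longer called. Beside BMP7, 3 of 7 neural markers were called higher in PGC, and the summed linear level of that list was 993 to 1110 in PGC and 75.6 to 80.8 in CEF. Most of the PGC sum was ELAVL4, and PAX6 was under background on all 6 arrays. SOX10 (-0.43), NEFL (-0.50) and TUBB3 (-0.34) lay towards CEF and were not called. The sum was also higher in PGC for 10 muscle markers (167 to 173 against 72.6 to 87.9 in CEF). Most of the PGC muscle sum was ACTN2 (2.53) and TNNC1 (2.13), both called higher in PGC. TNNT2 was called higher in CEF (-1.59) and 7 muscle markers were not called. The median difference of the muscle list was -0.20. For 8 erythroid markers the summed level was 110 to 124 in PGC and 77.1 to 99.6 in CEF. Most of that PGC sum was CA2 (1.80), called higher in PGC, and the other 7 were not called. HBA1 (-0.39), HBAD (-0.46) and SLC4A1 (-0.38) lay towards CEF, and the median difference of the erythroid list was -0.25. The part of such cells was not tested.

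BMP4, the BMP that induces germ cells in the mouse, was low in both cell types. Its brightest probe set (Gga.10863.1.S1_s_at), which can match transcripts of other genes too, read 2.52, 2.35 and 2.26 in PGC and 2.92, 2.83 and 2.45 in CEF. The groups overlapped, and the difference of -0.36 ± 0.16 (95% interval -0.73 to 0.02, adjusted p = 0.10) was not called. On Gga.686.1.S1_at, in contrast, all CEF arrays (2.59 to 3.05) were above all PGC arrays (1.72 to 2.22), with a difference of -0.85 ± 0.18 (adjusted p = 0.0042), under the 2-fold minimum. The remaining probe set differed by 0.05 ± 0.12, with all CEF arrays under background. The sign of the BMP4 difference turned after spike-in scaling (0.62).

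BMP5, a ligand of skeletal and limb development, lay under background on all 6 arrays on each of its 3 probe sets, with readings between 0.23 and 0.93. BMP5 was thus not measurable in either cell type on this array, and no fold is given.

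**Figure D2:**
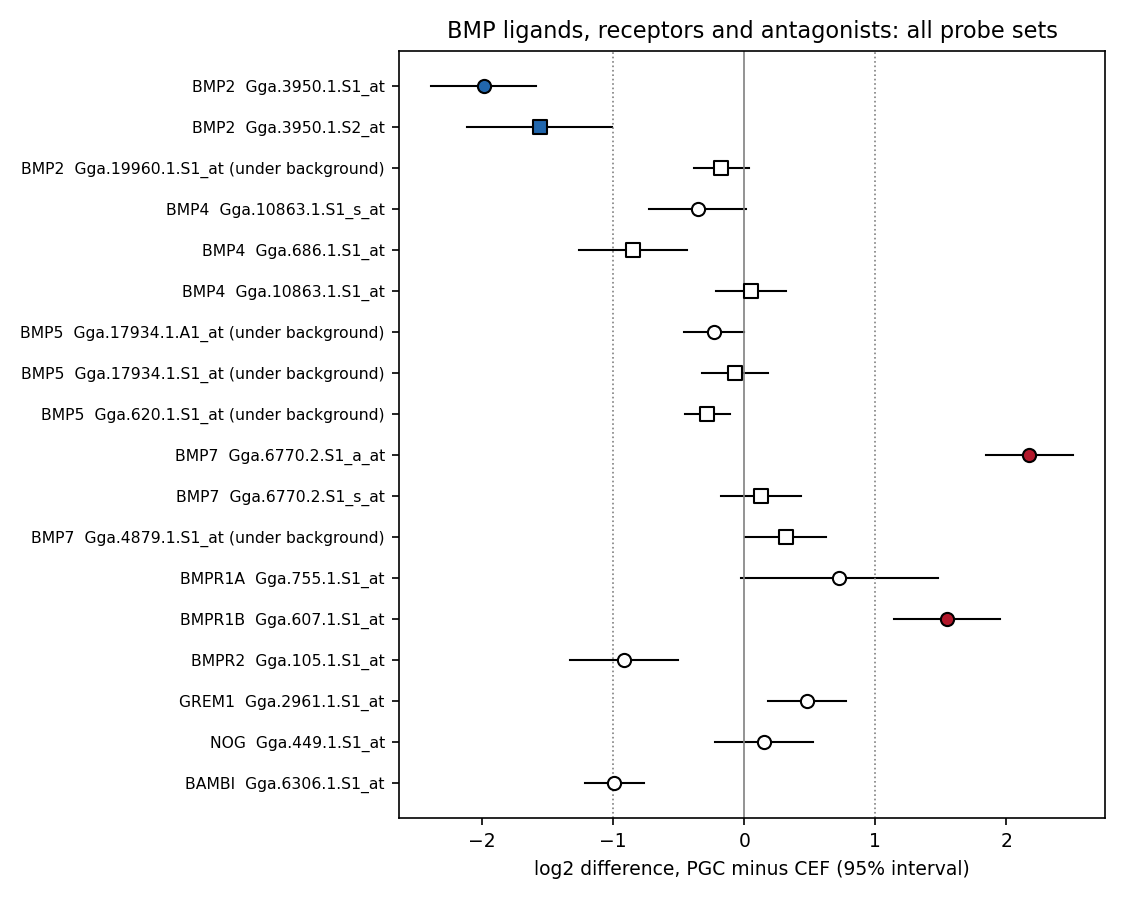
Log2 difference PGC minus CEF (horizontal axis) of the 18 BMP probe sets with 95% intervals; circles mark the probe set that stands for each gene, squares the others, red a call higher in PGC, blue a call higher in CEF and white no call, with dotted lines at a 2-fold difference. Both called BMP2 probe sets lie left of -1, whereas 1 of the 3 BMP7 probe sets lies right of 1 and the other 2 lie near 0.

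The receptors did not move together. BMPR1B, a type I receptor prominent in cartilage condensations and the ovary, read 3.57, 3.47 and 3.94 in PGC and 1.94, 2.33 and 2.08 in CEF (Gga.607.1.S1_at). The PGC arrays were all above the CEF arrays, of which 2 of 3 were above background and by little. BMPR1B was 2.92-fold higher in PGC (1.55 ± 0.18, 95% interval 1.15 to 1.95, adjusted p = 1.0e-04). Its differences lay between 1.41 and 2.53 under all other treatments tried, each of them called, with the highest adjusted p of 0.046 under treat.

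BMPR1A, the widely expressed type I receptor, read 5.07, 5.00 and 5.17 in PGC and 3.48, 4.76 and 4.83 in CEF (Gga.755.1.S1_at). All 6 arrays were well above background, and the groups did not overlap, but CEF replicate 1 was far under the other CEF arrays. The SD was 0.76 in CEF and 0.09 in PGC. The difference was 0.72 ± 0.33 (95% interval -0.03 to 1.48, adjusted p = 0.10), which was not called and fell to 0.28 without CEF replicate 1. After spike-in scaling BMPR1A was called at 1.70.

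BMPR2, the type II receptor specific to BMPs, read 2.99, 3.07 and 3.09 in PGC and 3.59, 4.17 and 4.15 in CEF (Gga.105.1.S1_at). All CEF arrays were higher, by -0.92 ± 0.18 (95% interval -1.33 to -0.51, adjusted p = 0.0028), just under the 2-fold minimum. BMPR2 passed that minimum without CEF replicate 1 (-1.11), after centring on the 75th percentile (-1.04) and after quantile normalization (-1.04), and its sign turned after spike-in scaling (0.060). BMPR1B and BMPR2 were also compared on the same array, which no shift of a whole array can alter. BMPR1B minus BMPR2 was 0.58, 0.40 and 0.86 in PGC and -1.66, -1.84 and -2.07 in CEF, a change in the balance of 2.47. Its CEF side rests on BMPR1B readings near background, that of CEF replicate 1 under it (1.94 against 1.95). BMPR1A minus BMPR2 moved the same way by 1.64, from 2.03 ± 0.08 (SD, n = 3) in PGC to 0.39 ± 0.44 in CEF. BMPR1A minus BMPR1B moved by -0.82, from 1.42 ± 0.16 in PGC to 2.24 ± 0.63 in CEF. Each of these receptor pairs had a two-sided exact permutation p of 0.10, or 0.13 adjusted over the 10 pairs within a role. That p is the smallest that 3 against 3 arrays allow, and it means only that the cell types did not overlap. For BMPR1A minus BMPR1B the gap was narrow, from 1.53 on PGC replicate 2 to 1.54 on CEF replicate 1. In all, 8 of the 10 pairs reached that p, some of them with readings under background. The share among other gene pairs was not computed. Of single genes, 35.7% lay wholly higher in PGC and 35.5% wholly higher in CEF.

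The antagonists differed little. GREM1 (gremlin), which binds BMP2, BMP4 and BMP7, read 2.65, 2.64 and 2.70 in PGC and 2.18, 2.32 and 2.05 in CEF (Gga.2961.1.S1_at). The PGC arrays were all higher, by 0.48 ± 0.13 (95% interval 0.18 to 0.78, adjusted p = 0.014), which is 1.40-fold and under the minimum. That fold rests on CEF readings close to the background levels of 1.95, 1.97 and 1.99. GREM1 reached 1.46 and a call after spike-in scaling. NOG (noggin), the other ligand trap, read 3.15, 3.22 and 3.49 in PGC and 3.36, 2.99 and 3.07 in CEF (Gga.449.1.S1_at). These groups overlapped, and the difference was 0.15 ± 0.16 (95% interval -0.23 to 0.52, adjusted p = 0.48), or 1.13 and called after spike-in scaling.

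BAMBI, the pseudoreceptor and itself a target of BMP signalling, had narrow groups of 6.31, 6.30 and 6.35 in PGC and 7.38, 7.21 and 7.34 in CEF (Gga.6306.1.S1_at). CEF was higher on every array, by -0.99 ± 0.10 (95% interval -1.22 to -0.76, adjusted p = 4.9e-05), a 1.99-fold difference at the edge of the 2-fold minimum. BAMBI passed it after centring on the 75th percentile (-1.11) and quantile normalization (-1.07), without CEF replicate 2 (-1.04) and, narrowly, without PGC replicate 3. After spike-in scaling the difference was -0.01.

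Scalings that shift whole arrays cannot change the members' order, since every difference moves by the same amount. Measured from that median, BMP7 stood at 2.26, BMPR1B at 1.63, BMPR1A at 0.81, BAMBI at -0.90 and BMP2 at -1.90 with deposited values, 75th percentile centring and spike-in scaling alike. The replicate spread of the 10 genes was larger in CEF, where the median SD was 0.20 and that of PGC 0.11, as over all probe sets (0.20 against 0.10).

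**Figure D3:**
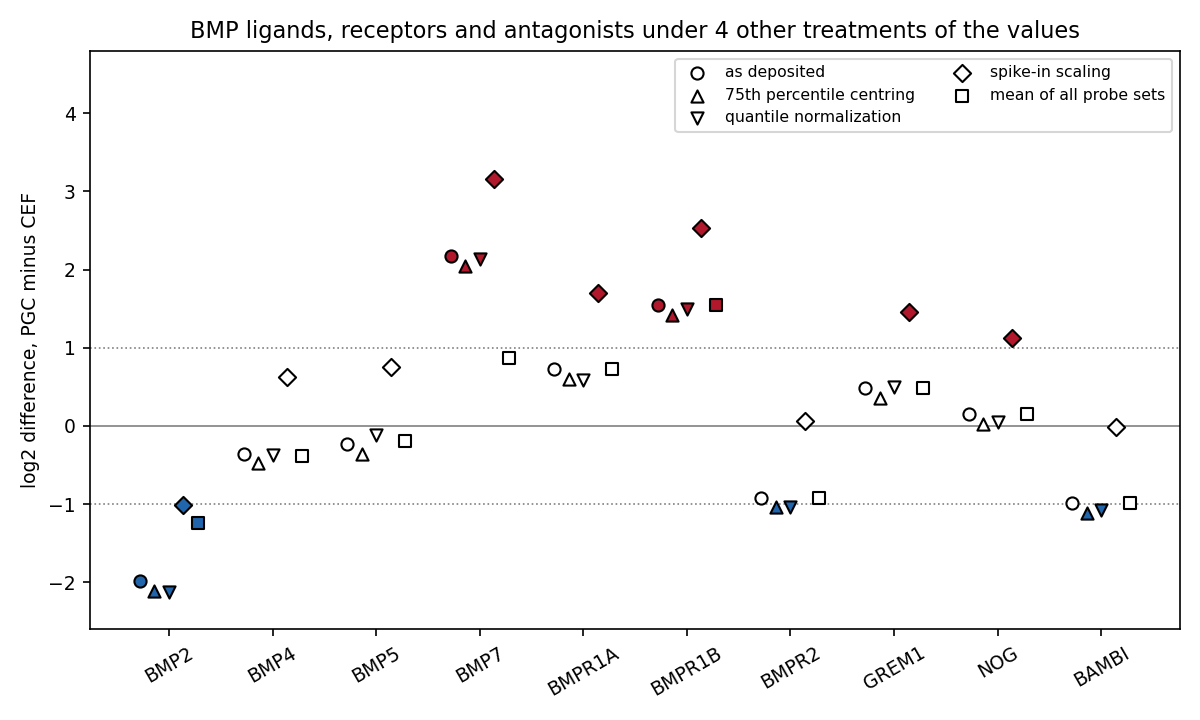
Log2 difference PGC minus CEF (vertical axis) of the 10 BMP genes with the deposited values and after 4 other treatments; red marks a call higher in PGC, blue a call higher in CEF and white no call, with dotted lines at a 2-fold difference. BMP2 stays at or below -1.01 and BMPR1B at or above 1.42, BMP7 drops to 0.87 as the mean of its probe sets, and spike-in scaling raises every gene by the same amount.

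Other genes of the pathway were listed as 5 groups, of which 52 of 64 entries were measured. The calls were 10 towards PGC and 14 towards CEF, where 17.6% and 14.9% of all genes were called. The counts of each group below are to be set beside the same shares. The median of the 52 was -0.20. Spike-in scaling changed the counts over the 52 to 20 and 11. SMAD4 was not measured by a probe set with a single symbol.

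Of 9 other ligands measured, 2 were called, both higher in PGC. GDF3, a ligand related to Vg1 that signals through the activin branch in other vertebrates, read 5.79, 5.42 and 5.54 in PGC and 2.35, 2.40 and 2.44 in CEF, 9.10-fold apart (3.19 ± 0.14, adjusted p = 4.4e-07). ADMP, a BMP-class ligand of the organiser in frog and chick embryos, differed by 3.33 ± 0.13 (10.1-fold, adjusted p = 2.2e-07). Both stood just above background on all CEF arrays, and BMP6 and BMP10 lay under background on all 6 arrays.

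Of 7 other receptors and co-receptors measured, 2 were called in PGC and 1 in CEF, and all 7 are described, a choice made after their values were seen. ACVR2B, a type II receptor shared by activins and BMPs, was 6.60-fold higher in PGC (2.72 ± 0.22). RGMB, a BMP co-receptor, was 5.33-fold higher there (2.41 ± 0.22). ACVR1, a type I receptor for BMPs that the array annotation calls ATVR1, was 2.54-fold higher in CEF (-1.35 ± 0.08), a call that ended after spike-in scaling (-0.37). ACVR2A, the paralogue of ACVR2B, was not called at -0.82 ± 0.07, and its sign turned after spike-in scaling (0.16). ENG (endoglin, a co-receptor of endothelium) was not called at -0.91 ± 0.18 and turned to 0.066 after spike-in scaling. NEO1, a receptor for RGM proteins, stood at 0.41 ± 0.11, or 1.39 and called after spike-in scaling. RGMA, a relative of RGMB, lay under background on all 6 arrays (0.02 ± 0.14), and its sign varied with the arrays and scaling used. The type II receptors differed in direction, ACVR2B towards PGC and BMPR2 and ACVR2A, both under 2-fold, towards CEF on the deposited values.

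Extracellular antagonists and modulators numbered 15 measured, with 3 called higher in PGC and 5 in CEF. CRIM1, a membrane protein that binds BMPs, was 18.0-fold higher in CEF (-4.17 ± 0.13), and BMPER, a secreted modulator, 8.35-fold (-3.06 ± 0.16). The BMPER fold rests on PGC readings of 2.15, 1.73 and 1.81, close to the background levels of 1.65, 1.73 and 1.67. VWC2 (brorin), a secreted antagonist, was higher in PGC (3.75 ± 0.19), with 2 of 3 CEF arrays above background and the CEF mean of 1.90 under the mean background level, so that no fold is given. CHRDL1, a chordin-like antagonist, was at least 5.19-fold higher in PGC (3.22 ± 0.16), with CEF under background, and came to 1.59 as the mean of its probe sets. The probe sets that stand for VWC2 and CHRDL1 can match transcripts of other genes too. These 4 genes were named for the size of their differences, and 7 of the 15 were not called.

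Of 11 intracellular transducers and inhibitors, 2 calls went towards PGC and 4 towards CEF. The SMADs that carry the BMP signal went different ways. SMAD5 was 2.18-fold higher in PGC (1.12 ± 0.16), SMAD1 had a difference of 0.77 ± 0.14 under the minimum, and SMAD9 was 2.36-fold higher in CEF (-1.24 ± 0.21). The SMAD5 call ended without CEF replicate 1 (0.96), as the mean of its probe sets (0.55) and under treat, and that of SMAD9 after spike-in scaling (-0.26) and under treat. Of the inhibitory SMADs, SMAD6 was 5.09-fold higher in CEF (-2.35 ± 0.16), while SMAD7 had a difference of -0.48 ± 0.13. SMURF2, a ubiquitin ligase that targets SMADs and receptors, was 12.8-fold higher in CEF (-3.68 ± 0.14). The probe sets that stand for SMURF2 and SMAD5 can match transcripts of other genes too. SMURF1, the paralogue of SMURF2, named after its value was seen, was 2.75-fold higher in PGC (1.46 ± 0.12, adjusted p = 1.7e-05).

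Of 10 transcriptional targets, 1 was called in PGC and 4 in CEF. The former, HEY1, a transcriptional repressor also known as a Notch target, was 4.62-fold higher in PGC (2.21 ± 0.16, adjusted p = 7.0e-06) and was named after its value was seen. ID1, the classical BMP target, read 8.32, 8.44 and 8.62 in PGC and 8.97, 8.52 and 9.70 in CEF. Those groups overlapped, and the difference was not called (-0.60 ± 0.25, adjusted p = 0.081). ID2 overlapped too, at -0.18 ± 0.25. ID4 was 5.27-fold higher in CEF (-2.40 ± 0.11) and ID3 2.01-fold (-1.01 ± 0.16), the latter at the edge of the minimum, so that its call ended without PGC replicate 1 (-0.92), PGC replicate 3 (-0.92), CEF replicate 1 (-0.98) or CEF replicate 3 (-0.99), after spike-in scaling (-0.03) and under treat. The homeobox genes MSX2 and DLX5, which act in bone and limb formation, had the largest differences towards CEF of the 5 groups. MSX2 read 1.68, 1.42 and 1.34 in PGC and 6.32, 6.47 and 7.57 in CEF (-5.31 ± 0.31). Only 1 of 3 PGC arrays was above background, and narrowly, so that no fold is given. DLX5 was 18.9-fold higher in CEF (-4.24 ± 0.15), but only by -1.69 as the mean of its probe sets. On the third CEF array BMP2, ID1, ID2, MSX2 and DLX5 each had their highest reading, as did ID4, whereas BAMBI and ID3 did not. The third CEF array was highest for the summed leukocyte and endothelial markers and for SPP1. It was not highest for the other cartilage and bone markers summed, nor for the epithelial markers summed. Of the 9 endothelial markers, 7 were not called. The part of such cells was not tested.

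**Figure D4:**
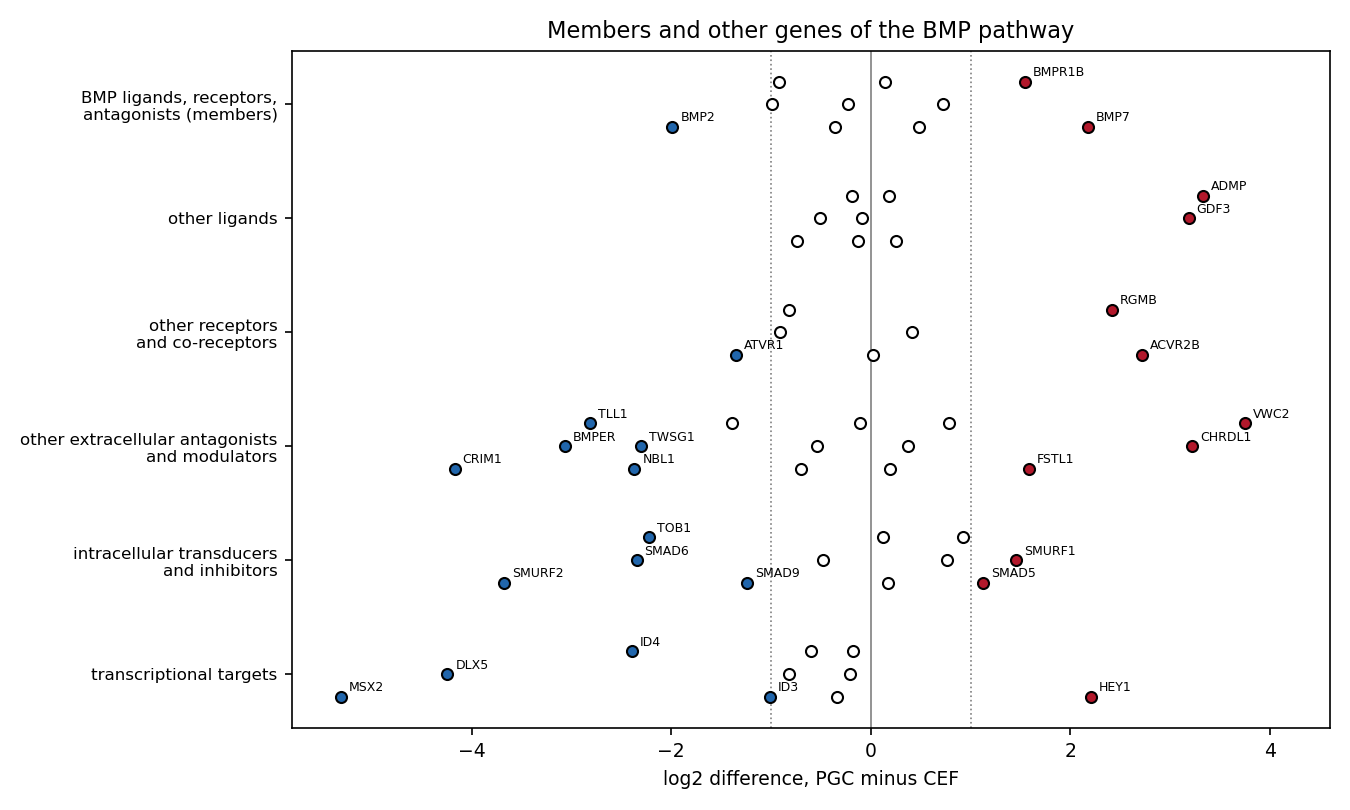
Log2 difference PGC minus CEF (horizontal axis) of the 10 BMP genes and of 52 other genes of the pathway in 5 groups; red marks a call higher in PGC, blue a call higher in CEF and white no call, with dotted lines at a 2-fold difference and called genes named. The 10 BMP genes lie between -1.99 and 2.17, whereas other pathway genes reach -5.31 (MSX2) and 3.75 (VWC2).

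The genes with the pattern most like that of BMP7 and BMP2 were sought among 13008 others, by the Euclidean distance over the 6 arrays between log2 values centred on each gene's own mean. For BMP7 they were PKD2L2 (distance 0.18, difference 2.19), PTPDC1 (0.19, 2.14) and FERMT1 (0.21, 2.22). For BMP2 they were DUSP10 (distance 0.24, difference -1.92), MYO9B (0.28, -1.82) and NDRG1 (0.30, -1.87). With 2 cell types such likeness mostly reflects a difference of similar size.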

How the data were processed

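Values from 6 one-colour Affymetrix Chicken Genome arrays (3 PGC, 3 CEF; about 5 µg of RNA each) were used. The deposited values for 38535 probe sets were read as log2 expression already normalized by the authors, from their range. MAS5 and GCOS are named in the submitters' processing notes, but which of them corrected background or normalized is not given there. They were used with no further scaling. Groups and replicate numbers come from the sample titles. Precision is limited by the 3 arrays in each group. The 96 AFFX controls were left out, and 38439 probe sets were tested with limma 3.58.1 in R 4.3.3 (lmFit, eBayes with intensity trend, cell type as the only term, two-sided, Benjamini-Hochberg over all of them). On simulated data with 38439 probe sets the same fit called 49 and 50 of 50 shifts of -3 and 3, and 46 and 40 of 50 shifts of -1.5 and 1.5, with 6 false calls. The simulated noise was independent and had the same SD in both cell types, whereas the real SD was mostly larger in CEF. The criterion first set, over 80% of the shifts of 1.5 called, was missed by the upward shifts. It was then replaced by recovery of the median shift, of most shifts of 3, and few false calls, so differences near 2-fold can be missed. The probe set with the highest mean stood for a gene. Of the probe sets, 27178 had 1 symbol, 177 several and 11180 none in the platform annotation, which names no genome build, so no coordinates are given. Where all arrays of the lower cell type were under their own background level, the fold is a bound against that level. The lists match by symbol, except ACVR1, which matched by synonym. The 10 members, the lists, the rule for naming pathway genes (called with an absolute log2 difference of at least 3, plus the ID and SMAD genes) and the background level were chosen with earlier results of these data known. Alternatives were other scalings, a fit without trend, a replicate term, a filter on dim probe sets, the mean of a gene's probe sets, treat, and leaving out each array.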

Additional observations from a re-analysis of the deposited data

How the results depend on the processing

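Of 139 comparisons of a BMP gene with an alternative, 125 kept the direction and the call and 10 gained a call. A further 1 lost its call (BMP7 as the mean of its probe sets) and 3 changed sign. The 3 that turned, all after spike-in scaling, were BMP4 (0.62), BMP5 (0.75) and BMPR2 (0.060). The fit without trend, the replicate term, the filter on dim probe sets and treat leave each difference unchanged by construction. The mean of probe sets does so too for genes with a single probe set. Many of the 139 therefore could not change direction, so these counts do not measure stability. Member genes called higher in PGC numbered 2 with deposited values, 5 after spike-in scaling and 1 with the mean of all probe sets. Those called higher in CEF numbered 1, or 3 after 75th percentile centring or quantile normalization and 1 to 2 when single arrays were left out. Other pathway genes called in PGC rose from 10 to 20 after spike-in scaling. Over all probe sets 5597 were called in PGC and 3872 in CEF, 15766 and 1749 after spike-in scaling, and 3245 and 2419 under treat. Spike-in scaling also turned the sign of BMP2 Gga.19960.1.S1_at (0.80), BMP4 Gga.686.1.S1_at (0.13), BMP5 Gga.17934.1.S1_at (0.91) and Gga.620.1.S1_at (0.70), ACVR2A (0.16), ENG (0.066), SMAD7 (0.50), ID1 (0.38) and ID2 (0.80). BMP4 Gga.10863.1.S1_at turned after 75th percentile centring (-0.074), as did RGMA (-0.10), and BMP5 Gga.17934.1.S1_at after quantile normalization (0.029). With single arrays left out, BMP5 Gga.17934.1.S1_at ranged from -0.16 to 0.032, with the sign turned without CEF replicate 2, RGMA from -0.11 to 0.15, turned without PGC replicate 3 (-0.033) or CEF replicate 3, and ID2 from -0.48 to 0.12, turned without CEF replicate 3. The cause of these changes was not tested. Spike-in scaling adds the same 0.98 to every difference by construction, and the spike-in cre differed by only -0.13. Same-numbered PGC and CEF arrays did not deviate together over all probe sets (correlations -0.04 to 0.01). With 3 arrays in each group, and many probe sets under background, this cannot exclude a pairing. With the replicate block, calls towards PGC and CEF numbered 2 and 1 of the members, 10 and 15 other pathway genes, and 5611 and 3887 probe sets.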
